A study of Homo sapiens with 8 samples.

Results

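The data described here are the 4 arrays of the V71 line, a stable line made from SHSY5Y human neuroblastoma cells, out of 8 arrays in the series. The arrays were chosen by their titles, which carry V71 with NDF (replicates 2 and 3) or DF (replicates 1 and 2), and the change upon differentiation is DF minus NDF. All 18377 genes that have a row with exactly 1 gene symbol were read, 19310 of the 28869 rows. Each array is an Affymetrix Human Gene 1.0 ST array, and its values are log2 intensities normalized and summarized by the authors with the robust multi-average method (RMA).

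V71 NDF cells were kept on laminin in growth medium with 10% fetal calf serum. V71 DF cells received 10 µM retinoic acid on laminin for 5 days in medium with serum, and then 2 nM BDNF without serum for 3 days. Retinoic acid, BDNF, the withdrawal of serum and the time in culture therefore change together between the groups, and their effects cannot be told apart. A line named PLKO, handled in the same ways, gave the other 4 arrays. Both lines were kept in puromycin at 1 µg/ml, which selects for the integrated vector. The sources disagree on which line carries the shRNA. The treatment label calls V71 the control and PLKO the shRNA line, while the methods give the control viruses a pLKO vector and end the name of the shRNA clone in 71. No label was changed, and the lines are called V71 and PLKO. The shRNA's target gene was not analysed here, and the labels therefore have no check of that kind. Each line is a single stable line, and its arrays are biological duplicates in the methods' words. Nothing else says how separate the cultures were, so a p-value measures only the spread between these arrays.

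SHSY5Y cells are neuroblasts of the sympathetic lineage and can take on neuron-like features in culture. Retinoic acid is carried in the cell by CRABP proteins and binds nuclear receptors (RARs with RXR partners), which sit on paired hormone response elements and switch on genes that include the receptor RARB and the enzymes that clear retinoic acid. BDNF is a neurotrophin that binds the receptor tyrosine kinase TrkB, encoded by NTRK2, and TrkB signals through the ERK kinases, whose feedback inhibitors are the Sprouty (SPRY) and DUSP proteins. Neurons are postmitotic. The promoters of mitotic genes commonly hold CCAAT boxes and a cell cycle homology region (CHR), and those of DNA replication genes hold E2F sites.

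The promoters of the genes on which these results turn are shown first, from the RefSeq table for GRCh38.p14, each from a stretch before the transcription start. Position -1 is the last base before the start, letters read 5′ to 3′ on the strand of the gene, and capitals mark the letters searched for, on either strand. For retinoic acid, the unit searched was AGGTCA, the variant AGTTCA, the variant GGTTCA or the variant GGGTCA, repeated after a gap of 5 bases. RARB (chr3:25428163-25428262, plus strand, from position -100 to -1) holds such a repeat at -53 to -37. CYP26A1, which encodes the main retinoic acid hydroxylase, holds one at -90 to -74 of its second listed start (chr10:93073798-93073823, plus strand, from -95 to -70). These elements are shown because RARB rose in V71 and CYP26A1 was not called, as given below.
RARB: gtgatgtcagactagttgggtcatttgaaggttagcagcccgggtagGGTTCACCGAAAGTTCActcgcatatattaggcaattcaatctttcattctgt
CYP26A1: aaagaTGAACTTTGGGTGAACTaatt

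Only 16 of the 20069 promoters of tested genes hold the repeat with a gap of 5 (0.0797%), and 2 of the 70 promoters of the retinoid and retinoic acid target lists hold it. Those 2 are the RARB and CYP26A1 promoters printed above. The letters were chosen for retinoid genes, so the count of 2 is no test of the lists. Of the 1068 promoters of genes called higher, 1 holds it (0.0936%), and that is RARB. Of the 727 promoters of genes called lower, 1 holds it (0.138%). The repeat with a gap of 2 was searched too, and 0 of the 70 promoters hold it. A match describes letters in a window and is not evidence of a bound receptor.

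For mitosis, the letters were CCAAT and the CHR (the form TTTGAA or else the form TTTAAA). CCNB1 is shown at chr5:69167050-69167149, CCNB2 at chr15:59105026-59105145, PLK1 at chr16:23678789-23678888, CDC20 at chr1:43358861-43358980 and KIF20A at chr5:138178992-138179111, all on the plus strand and all ending at -1. Each of them holds at least 1 CHR and at least 1 CCAAT, and all 5 genes fell in V71.
CCNB1: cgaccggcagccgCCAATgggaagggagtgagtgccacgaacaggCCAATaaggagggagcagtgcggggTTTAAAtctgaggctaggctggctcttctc
CCNB2: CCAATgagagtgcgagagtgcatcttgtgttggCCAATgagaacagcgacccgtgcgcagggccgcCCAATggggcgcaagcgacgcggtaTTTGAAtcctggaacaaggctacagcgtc
PLK1: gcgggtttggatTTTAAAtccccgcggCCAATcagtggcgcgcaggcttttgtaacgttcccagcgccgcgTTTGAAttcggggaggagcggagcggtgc
CDC20: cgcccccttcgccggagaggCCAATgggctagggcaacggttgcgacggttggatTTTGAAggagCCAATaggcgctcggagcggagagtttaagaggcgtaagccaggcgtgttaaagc
KIF20A: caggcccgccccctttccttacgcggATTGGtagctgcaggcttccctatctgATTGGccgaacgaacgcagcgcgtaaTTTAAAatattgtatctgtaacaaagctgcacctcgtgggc

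The CHR letters stand in 60 of the 81 promoters (74.1%) of the G2 and mitosis genes called lower, against 19.9% of the promoters of all tested genes. CCAAT stands in 67.9% of them against 34.6%, and both together in 55.6% against 7.82%. Short motifs occur often by themselves, which is why the share over all promoters stands beside each count.

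For DNA replication, the letters were TTTCCCGC, TTTGGCGC, TTTCGCGC or TTTGCCGC. MCM6, a subunit of the replicative helicase, is shown from -160 to -61 (chr2:135876504-135876603, minus strand), where 2 overlapping matches, the form TTTGGCGC on one strand and TTTCGCGC on the other, occur at 2 places. PCNA, the sliding clamp, is shown at chr20:5126623-5126722 (minus strand) and CDT1, a licensing factor, at chr16:88803689-88803788 (plus strand), both from -100 to -1. All 3 genes fell in V71.
MCM6: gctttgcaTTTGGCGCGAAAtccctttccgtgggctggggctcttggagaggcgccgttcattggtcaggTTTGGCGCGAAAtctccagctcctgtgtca
PCNA: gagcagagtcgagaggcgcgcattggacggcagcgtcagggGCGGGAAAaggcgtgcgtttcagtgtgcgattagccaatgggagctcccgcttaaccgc
CDT1: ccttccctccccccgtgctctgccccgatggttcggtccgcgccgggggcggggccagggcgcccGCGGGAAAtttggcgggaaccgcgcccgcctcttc

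The E2F letters stand in 22 of the 56 promoters (39.3%) of the replication and S phase genes called lower, in 7.41% of those of the G2 and mitosis genes called lower, and in 4.15% of all. CCAAT stands in 64.3% of the promoters of the replication and S phase genes called lower, and the CHR letters in 14.3%.

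Upon differentiation of the V71 line 731 genes rose and 652 fell. Calls required an adjusted p under 0.05 in limma's test, with the Benjamini-Hochberg method applied to every row, together with a 1.5-fold change or more. Genes called higher were 3.98%, genes called lower 3.55% and both together 7.53% of the 18377 tested. Of the genes that rose, 44 did so by a fold of at least 4, and of those that fell, 20. The median log2 change over all genes was -0.00356. Arrays of the same V71 group had a Spearman correlation across rows of at least 0.9952, and V71 arrays of different groups one of at most 0.9868. In whole cultures such as these, fewer cells of a kind and less RNA per cell cannot be told apart. The number of arrays, 2 in each group, limits the precision of every value.

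The 3 genes that rose most were a signalling inhibitor, an enzyme and the BDNF receptor. RGS13, which dampens signals of G protein-coupled receptors, read 3.4 and 3.04 on the NDF arrays and 8.43 and 8.12 on the DF arrays, a fold change of 33.2 (log2 5.05, SE 0.15, adjusted p = 8.54e-08). NOS1, the neuronal nitric oxide synthase, read 3.61 and 4.12 in NDF and 8.76 and 8.66 in DF, a log2 change of 4.84 (SE 0.15). NTRK2 read 3.21 and 3.44 in NDF and 8.09 and 8.02 in DF, a 26.6-fold rise (log2 4.73, SE 0.10, adjusted p = 3.16e-08). All 3 read between 3.04 and 4.12 in NDF, whose arrays have a lower quartile of 3.03, and between 8.02 and 8.76 in DF. The next highest changes belonged to DPYSL3, a collapsin response mediator of growth cones (log2 4.39, SE 0.09), NCAM2, a neural adhesion molecule (4.09, SE 0.10), the myosin heavy chain gene MYH15 (4.05, SE 0.10), and DKK2, a secreted regulator of Wnt signals (3.92, SE 0.30). DKK2 is less certain than its neighbours, because its NDF arrays read 4.91 and 3.68. PLK2, a kinase of neurons, TNR, the matrix protein tenascin R, CNTNAP5, a contactin partner, the long noncoding RNA LINC01116 and the raft protein gene RFTN1 rose by log2 3.26 to 3.89. DLG2, a scaffold of the postsynaptic density, rose by 3.30 from NDF values of 2.74 and 2.78, below the lower quartile of their arrays, where background may set the size of the change.

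Among the genes that fell most were inhibitors of differentiation, histones and some neuronal genes. ID2, which blocks basic helix-loop-helix factors, read 8.18 and 7.90 in NDF and 4.94 and 4.79 in DF, a 9.03-fold fall (log2 -3.18, SE 0.15, adjusted p = 1.55e-06). RPH3A, the synaptic vesicle protein rabphilin, changed by log2 -3.07 (SE 0.14) and CHRM2, a muscarinic acetylcholine receptor, by -3.06 (SE 0.10). SEMA3A, a repellent axon guidance cue, read 5.85 and 5.69 in NDF and 3.01 and 3.0 in DF. RERG, a small GTPase related to RAS, read 6.18 and 5.92 in NDF against 2.87 and 3.12 in DF. The DF means of SEMA3A and RERG lie under the DF arrays' lower quartile of 3.02, so that background may limit their falls of log2 -2.77 and -3.05. AK5, an adenylate kinase of brain (-2.76), EDIL3, an integrin ligand (-2.53), WLS, the carrier of Wnt proteins (-2.42), NELL1, a secreted glycoprotein (-2.37), the nuclear receptor gene RORB (-2.34), CNTNAP2, a contactin partner (-2.32), and IGFBP5, which binds insulin-like growth factors (-2.31), complete the lowest genes outside the groups below.

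**Figure D1:**
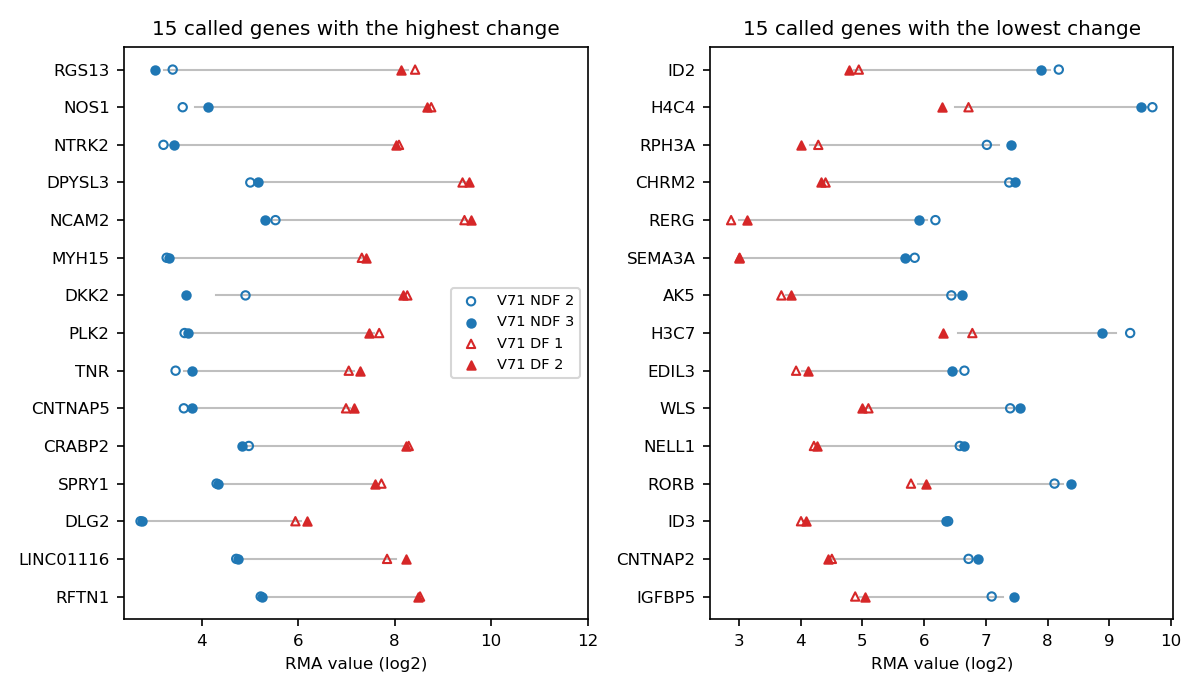
RMA values (log2, x axis) on the 4 V71 arrays for the 15 called genes with the highest and the 15 with the lowest change; circles are NDF and triangles DF arrays, open for the lower and filled for the higher replicate number, and grey lines join the group means. In each gene the 2 NDF arrays lie on one side of the 2 DF arrays, and DKK2 has the widest gap between its NDF arrays (4.91 and 3.68).

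The retinoid genes that rose were those of intracellular handling and feedback. Of 22 analysed retinoid receptors, carriers and enzymes, 4 rose and none fell, with a list median of 0.0763 (the background is 3.98% of genes called higher). CRABP2, the carrier that delivers retinoic acid to its receptors, read 4.98 and 4.84 in NDF and 8.29 and 8.25 in DF, a 10.3-fold rise (log2 3.36, SE 0.11, adjusted p = 1.52e-07). RARB read 3.95 and 3.82 before and 7.09 and 7.03 after differentiation (log2 3.17, SE 0.13, adjusted p = 8.64e-07). Both groups are tight and far apart in these 2 genes. DHRS3, which reduces retinal back to retinol, rose by log2 1.92 (SE 0.09, adjusted p = 1.55e-06), and CYP26B1, a hydroxylase that clears retinoic acid, by 1.5 (SE 0.16, adjusted p = 0.000269). CYP26A1, its close relative, was not called: it read 3.82 and 3.74 in NDF and 3.81 and 3.96 in DF (log2 0.11, SE 0.09, adjusted p = 0.567). STRA6, the retinol uptake receptor, stood at 6.37 to 6.54 on all 4 arrays (adjusted p = 0.37). The 95% interval of the CYP26A1 difference ran from -0.10 to 0.31, against a 9.03-fold rise of RARB, the other gene beside an element printed above.

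A wider list of genes known to be induced by retinoic acid had 13 of 33 members called higher (39.4%) and 1 lower, with a median of 0.137. Besides NTRK2, CRABP2 and RARB these included ENPP2, which makes lysophosphatidic acid (log2 2.60, SE 0.11), and NAV2, a neuron navigator of neurite growth (2.06, SE 0.09). MEIS1, a partner of HOX proteins (0.95, SE 0.10), and DKK1, a Wnt inhibitor (0.69, SE 0.12), rose less. COL4A1, a basement membrane collagen, changed the other way (-0.95, SE 0.09). The list was written from general knowledge with earlier results of these data known, so the 39.4% is not an independent test.

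The HOX genes that rose were neighbours. Of 27 analysed HOX genes, which pattern the body axis, 4 rose (14.8%, beside 3.98% of all genes) and none fell. The 4 were HOXD8, HOXD4, HOXD9 and HOXD10. HOXD8 read 4.99 and 4.77 in NDF and 6.40 and 6.51 in DF (log2 1.57, SE 0.16, adjusted p = 0.000187). HOXD4 read 5.51 and 5.6 in NDF and 6.88 and 6.90 in DF (log2 1.34, SE 0.10, adjusted p = 2.28e-05), and HOXD9 changed by 1.26 (SE 0.10). HOXD10 changed by 1.08 (SE 0.16, adjusted p = 0.00152), with NDF arrays at 3.50 and 4.09, and its call is lost without moderation of the variance (adjusted p = 0.0756). Genes on both sides of these in the cluster were not called. HOXD11 changed by 0.13 (adjusted p = 0.566), HOXD12 by 0.06 and HOXD13 by -0.07 on one side, and on the other HOXD3 by 0.33 (adjusted p = 0.0599) and HOXD1 by 0.24 (adjusted p = 0.425). The 18 analysed HOX genes of the other clusters, 1 HOXA, 10 HOXB and 7 HOXC genes, changed by -0.20 to 0.43, and none was called.

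Genes between and beside these were looked at after the values were seen, by the order of genes in RefSeq along chromosome 2. MIR10B, the microRNA precursor between HOXD8 and HOXD4, changed by 0.73 (SE 0.10), at values of 2.01 to 2.89 that lie under the lower quartile of the arrays. The locus LOC100129455, between HOXD9 and HOXD8, changed by 0.67 (SE 0.10, adjusted p = 0.00181). Past HOXD1, the next analysed gene was MTX2, a mitochondrial import protein (0.70, SE 0.15, adjusted p = 0.0129), and the one after it LINC01116, which read 4.72 and 4.76 in NDF and 7.84 and 8.23 in DF (log2 3.30, SE 0.13, adjusted p = 6.45e-07). LINC01116 thus had the largest change of the 13 analysed genes from HOXD13 to itself.

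**Figure D2:**
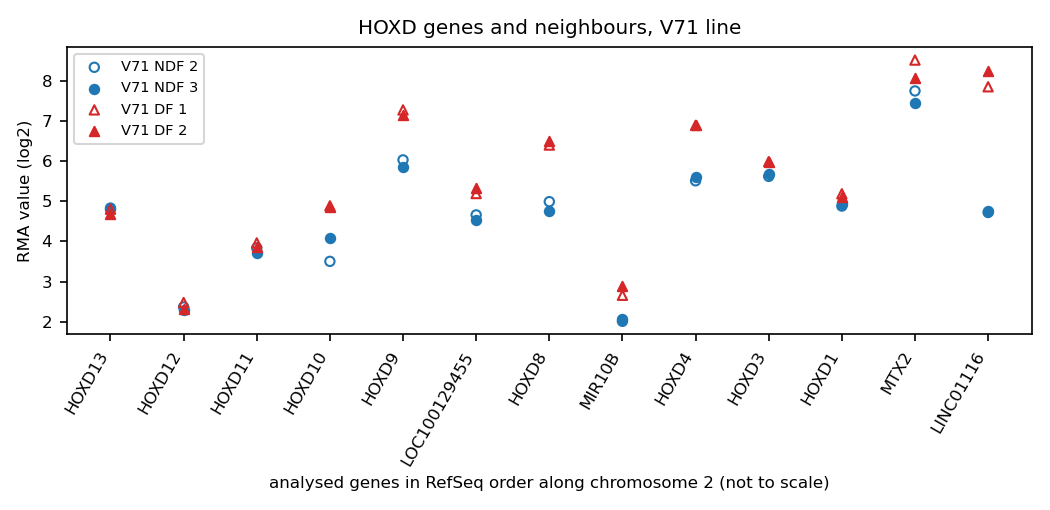
RMA values (log2, y axis) of the 13 analysed genes from HOXD13 to LINC01116 in their RefSeq order on chromosome 2 (x axis, not to scale), with circles for the V71 NDF and triangles for the V71 DF arrays. HOXD10, HOXD9, HOXD8 and HOXD4 are higher in DF (log2 1.08 to 1.57), HOXD11 to HOXD13 were not called, and LINC01116 differs most (3.30).

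The receptor for BDNF rose, while BDNF and the other neurotrophin receptors named here were not called. Of 15 analysed receptors, ligands and partners of the neurotrophin and GDNF families, 2 rose and none fell (13.3% higher, beside 3.98% of all genes, median 0.0255). The members of the GDNF family in this list (GFRA1 to GFRA4, NRTN, ARTN and PSPN) changed by -0.43 to 0.44, and none was called. GFRA2 (-0.43) was the lowest of them. The 2 genes of the list that rose were NTRK2, given above, and SORCS1, a sorting receptor of the VPS10 family. SORCS1 read 6.82 and 6.85 in NDF and 8.12 and 8.13 in DF (log2 1.29, SE 0.08, adjusted p = 8.22e-06). NTRK3, the receptor of neurotrophin-3, read 3.34 and 3.54 in NDF and 3.18 and 3.09 in DF (adjusted p = 0.105). NGFR, the low-affinity receptor p75, differed by -0.13 (SE 0.13) and BDNF itself by 0.27 (SE 0.11, adjusted p = 0.172). The row for BDNF reads the cells' own transcript and not the protein added to the medium.

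Of 38 genes of the early response to activity and BDNF, 6 rose and none fell (15.8% higher, beside 3.98% of all genes, median 0.0272). Feedback inhibitors of receptor tyrosine kinase and ERK signals made up 5 of the 6. SPRY1 read 4.31 and 4.35 in NDF and 7.73 and 7.59 in DF, a log2 rise of 3.33 (SE 0.09, adjusted p = 4.47e-08). DUSP6, the ERK phosphatase, read 7.09 and 7.05 in NDF and 9.0 and 8.91 in DF (log2 1.88, SE 0.09, adjusted p = 1.71e-06). SPRY4 rose by 1.15 (SE 0.08), DUSP4 by 1.12 (SE 0.09) and SPRY2 by 0.75 (SE 0.09). The remaining gene, the transcription factor EGR1, rose by 0.99 (SE 0.09). The other 32 genes of this list were not called.

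**Figure D3:**
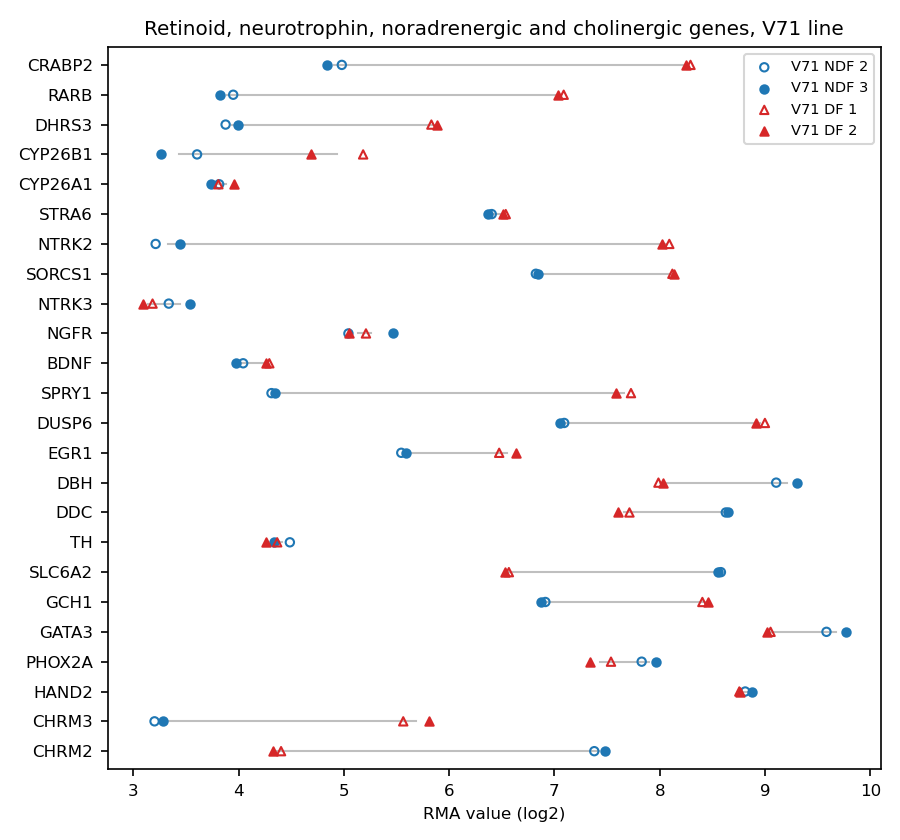
RMA values (log2, x axis) of 24 retinoid, neurotrophin, ERK feedback, noradrenergic and cholinergic genes on the V71 arrays, with circles for NDF and triangles for DF (open for the lower replicate number) and grey lines between group means. NTRK2 (3.21 and 3.44 in NDF, 8.09 and 8.02 in DF) spans the widest gap, while CYP26A1, STRA6, TH and HAND2 overlap or nearly overlap between the groups.

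Genes of the cell cycle fell together. Of 83 analysed genes of G2 and mitosis, 79 fell and none rose (95.2%, beside 3.55% of all genes called lower), with a median change of -1.31. All 83 changes are negative, from -1.92 to -0.43. HMMR, a spindle protein, fell most (log2 -1.92, SE 0.13, adjusted p = 1.76e-05). KIF20A, a kinesin of cell division, read 7.66 and 7.69 in NDF and 5.86 and 5.67 in DF, a 3.76-fold fall. PLK1, the mitotic kinase, changed by -1.84 (SE 0.13), DLGAP5 by -1.82, AURKA, another mitotic kinase, by -1.70 and the kinase gene PBK by -1.67. The proliferation marker MKI67 read 8.34 and 8.51 in NDF and 6.98 and 6.95 in DF (log2 -1.46, SE 0.11, adjusted p = 2.3e-05). These transcripts fell but remained well above the lower quartile of the arrays, since CCNB1, a cyclin that drives entry into mitosis, still read 7.65 and 7.52 in DF after 9.02 and 9.07 in NDF, and TOP2A, the topoisomerase of dividing cells, 7.45 and 7.49. CDK1, the kinase that cyclin B activates, changed by -1.66 (SE 0.20), with NDF arrays at 7.33 and 6.76, and loses its call without moderation (adjusted p = 0.0594). The 4 members not called, BUB3, CDC25B, RACGAP1 and FAM83D, changed by -0.54 to -0.43, under the fold needed.

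Of 75 analysed genes of DNA replication and S phase, 49 fell and none rose (65.3%, median -0.70), and all 75 changes are negative. The falls were smaller than in mitosis: 13 of the 49 reached a fold of 2, against 67 of the 79 mitotic genes. E2F7, a repressor of the E2F family, changed most (-1.26, SE 0.09, adjusted p = 1.52e-05), followed by ORC1 of the origin recognition complex (-1.23, SE 0.15), the checkpoint mediator CLSPN (-1.19, SE 0.16), RRM2, the ribonucleotide reductase subunit (-1.16, SE 0.14), the helicase gene BLM (-1.14, SE 0.10) and MYBL2, a transcription factor of cycling cells (-1.10, SE 0.10). ORC1 and CLSPN lose their calls without moderation. MCM2 changed by -0.96 (SE 0.11) and PCNA by -0.71 (SE 0.10), while MCM6 (-0.78, SE 0.10) and CDT1 (-0.70, SE 0.11), named for their promoters above, lay in the same range.

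Replication-dependent histones, which are made in S phase, had 38 of 50 analysed members called lower and none higher (median -1.15). Without moderation of the variance 25 were called. H4C4 read 9.70 and 9.52 in NDF and 6.72 and 6.28 in DF, an 8.61-fold fall (log2 -3.11, SE 0.15, adjusted p = 1.92e-06), and H3C7 9.34 and 8.88 in NDF against 6.78 and 6.30 in DF (log2 -2.57, SE 0.22). H2AC21 changed by -1.97, H2BC3 by -1.94, H3C8 by -1.90 and H3C2 by -1.89. Histone genes of a class have nearly the same sequence, so probes for one may read another, and the number of separate genes behind the 38 is uncertain.

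The CDK inhibitors that halt the cycle were not called. CDKN1A, which encodes the CDK inhibitor p21, read 5.14 and 5.19 in NDF and 5.51 and 5.48 in DF (log2 0.33, SE 0.10, adjusted p = 0.0648). CDKN1B, which encodes p27, differed by 0.27 (SE 0.10, adjusted p = 0.131). Of 23 analysed CDK inhibitors, cyclins D with their kinases, and pocket proteins, 4 fell and none rose (17.4% lower, beside 3.55% of all genes). RBL1, a pocket protein, changed by -0.93 (SE 0.10), CDK2 by -0.80 (SE 0.09), CCND1, cyclin D1, by -0.78 (SE 0.10) and CDK4 by -0.59 (SE 0.09). CDK4 sits at the fold threshold and loses its call without V71 DF replicate 2 (-0.52) or V71 NDF replicate 3, and under quantile normalization (-0.56) or median centring (-0.58).

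Of 22 analysed ID and BMP genes, 6 fell and 1 rose (27.3% lower, median -0.0599). Those that fell were 3 ID genes, BAMBI and the inhibitory SMADs. After ID2 came ID3, at 6.39 and 6.36 in NDF and 4.01 and 4.08 in DF (log2 -2.33, SE 0.09, adjusted p = 4.15e-07), and BAMBI, a decoy receptor of BMPs, at 6.90 and 7.05 against 5.15 and 4.87 (log2 -1.96, SE 0.12). ID1 changed by -1.48 (SE 0.12), and the inhibitory SMADs SMAD6 and SMAD7 by -1.26 (SE 0.13) and -0.64 (SE 0.10). BMPR1B, a BMP receptor, was the gene that rose (1.5, SE 0.09, adjusted p = 8.25e-06). The other 15 genes were not called, among them ID4 (0.33), the secreted BMP inhibitors NOG, CHRD, GREM1 and FST (of which FST was lowest, at -0.17), the BMP ligands and BMPR2 (0.54). In the Notch list of 29, 2 rose and 1 fell (6.9% and 3.45%, beside 3.98% and 3.55% of all genes). HEY1, a repressor induced by Notch or BMP, rose by 1.59 (SE 0.11, adjusted p = 1.46e-05), and the receptor NOTCH2 by 0.81 (SE 0.09). DLK1, a membrane protein related to Delta, fell by 1.51 on the log2 scale (SE 0.10).

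The sympathetic identity of the cells was checked on PHOX2A, GATA2, GATA3, HAND2, ISL1, DBH, DDC and CHGA, which read 7.34 to 9.77 on the V71 arrays of both conditions. TH, the rate-limiting enzyme of catecholamine synthesis, read 4.49 and 4.33 in NDF and 4.37 and 4.26 in DF (adjusted p = 0.719). Of 20 analysed transcription factors of the noradrenergic neuroblast 8 fell and 3 rose (40.0% lower, median -0.355). EYA1 changed by -1.59 (SE 0.08, adjusted p = 3.2e-06), INSM2 by -1.35 (SE 0.13), SOX11, a factor of immature neurons, by -1.34 (SE 0.10), TBX2 by -1.09 (SE 0.15) and SIX3 by -0.91 (SE 0.15). GATA3 changed by -0.64 (SE 0.09, adjusted p = 0.00134), a call that is lost without V71 NDF replicate 3 (-0.55) or with a replicate block (-0.57). HEY1 is in this list too, and with TFAP2B (0.68, SE 0.09) and SOX4 (0.64, SE 0.10) it rose. PHOX2A differed by -0.46 (SE 0.10), under the fold needed, and HAND2 read 8.76 to 8.88 on all arrays (adjusted p = 0.673).

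Catecholamine genes moved both ways, with 5 of 19 lower and 2 higher (26.3% and 10.5%, beside 3.55% and 3.98% of all genes, median -0.0677). SLC6A2, the noradrenaline transporter, read 8.58 and 8.55 in NDF and 6.57 and 6.53 in DF, a 4.05-fold fall (adjusted p = 8.65e-07). The breakdown enzyme MAOA fell by 1.38 (SE 0.10), DBH, which makes noradrenaline, by 1.20 (SE 0.09) and DDC, which makes dopamine, by 0.98 (SE 0.10), all on the log2 scale. The vesicle transporter SLC18A2 changed by -0.78 (SE 0.13) to a DF mean under the lower quartile. In contrast, GCH1, which makes the cofactor of TH, read 6.91 and 6.87 in NDF and 8.41 and 8.45 in DF (log2 1.54, SE 0.09, adjusted p = 5.4e-06), and SLC18A1, the other vesicle transporter, rose by 1.22 (SE 0.12). Of 21 cholinergic genes, 1 rose and 1 fell (4.76% each), close to the 3.98% and 3.55% of all genes. Both were muscarinic receptors. CHRM3 read 3.20 and 3.28 in NDF and 5.56 and 5.81 in DF (log2 2.44, SE 0.10, adjusted p = 9.96e-07), and CHRM2 7.38 and 7.48 in NDF and 4.40 and 4.33 in DF. CHAT, which makes acetylcholine, read 3.80 to 4.09 on all arrays (adjusted p = 0.364), ACHE differed by 0.25 (SE 0.09, adjusted p = 0.123), while the nicotinic subunit gene CHRNA3 differed by -0.58 (SE 0.09), just short of the fold and called lower without V71 DF replicate 1 (-0.62) or V71 NDF replicate 2 (-0.65).

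Genes of the neurite cytoskeleton rose in part. Of 42 analysed genes of the neuronal cytoskeleton and growth cone, 16 rose and none fell (38.1%, median 0.238). DPYSL3 read 5.01 and 5.16 in NDF and 9.41 and 9.54 in DF, a 20.9-fold rise (adjusted p = 3.16e-08), and ANK2, an ankyrin of axons, 7.77 and 7.75 against 10.29 and 10.37 (log2 2.57, SE 0.08). NEFM, the medium neurofilament, rose by 1.48 (SE 0.10) and NEFL, the light one, by 0.67 (SE 0.09), and NEFH, the heavy one, differed by 0.22 (adjusted p = 0.171). The transport kinesin KIF5A rose by 1.21 (SE 0.11), the microtubule-binding kinase DCLK2 by 1.18 (SE 0.09), GAP43, the growth cone protein, by 0.81 (SE 0.09) and DCX, of migrating young neurons, by 0.74 (SE 0.09). STMN2, a stathmin of growth cones, was high throughout, at 11.47 and 11.41 in NDF and 11.48 and 11.44 in DF (95% interval of the difference -0.16 to 0.20, adjusted p = 0.931). MAP2 differed by 0.27 (SE 0.09, adjusted p = 0.081) and MAPT by 0.25 (SE 0.12, adjusted p = 0.259).

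Of 52 analysed genes of the synaptic vesicle and exocytosis, 14 rose and 2 fell (26.9% higher, median 0.252). Without moderation 9 were called higher. SYT9, a calcium sensor, read 3.94 and 4.30 in NDF and 6.53 and 6.47 in DF (log2 2.38, SE 0.12, adjusted p = 1.92e-06). RAB3B rose by 1.53 (SE 0.13), the active zone scaffold RIMS1 by 1.46 (SE 0.10), the synapsin SYN2 by 1.38 (SE 0.13), SYT4 by 1.37 (SE 0.09) and SNAP25, a SNARE of vesicle fusion, by 1.18 (SE 0.09). SYP, synaptophysin, rose by 0.63 (SE 0.11), a call that ends without V71 DF replicate 1 (0.54). SYN1 differed by 0.46 (SE 0.10), called only when V71 NDF replicate 3 is left out (0.60), and SYT1, the main fast calcium sensor, stood at 7.73 to 7.80 (adjusted p = 0.833). The large fall of RPH3A, from 7.02 and 7.41 to 4.29 and 4.0, runs against the direction of most called members. In the list of 29 secretory granule and neuropeptide genes 3 rose and 1 fell (10.3% and 3.45%, beside 3.98% and 3.55% of all genes). CHGB, a granin, read 7.17 and 7.38 in NDF and 9.35 and 9.65 in DF (log2 2.22, SE 0.12, adjusted p = 4.89e-06). SCG5, a chaperone of prohormone convertase, rose by 1.39 (SE 0.14) and CPE, a processing enzyme, by 0.68 (SE 0.09). The neuropeptide NMU fell by 0.71 (SE 0.10).

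Adhesion and guidance genes moved both ways within their families. Of 45 analysed neural adhesion genes, 12 rose and 7 fell (26.7% and 15.6%, median 0.106). NCAM2 read 5.53 and 5.31 in NDF and 9.45 and 9.57 in DF. Contactin partners of 1 family moved apart, with CNTNAP5 at 3.63 and 3.80 in NDF and 6.99 and 7.16 in DF (log2 3.36, SE 0.10), CNTNAP2 at 6.72 and 6.87 against 4.51 and 4.45 (-2.32, SE 0.10), and CNTNAP4 at 5.48 and 5.46 against 3.53 and 3.49 (-1.96, SE 0.10). CDH11, a cadherin, rose by 2.02 (SE 0.11) and CADM1, a synaptic adhesion molecule, by 1.90 (SE 0.09). In axon guidance 7 of 64 genes rose and 6 fell (10.9% and 9.38%, beside 3.98% and 3.55% of all genes, median -0.0482). EPHA6, an ephrin receptor, rose by 1.92 (SE 0.12), EFNB2, an ephrin, by 1.83 (SE 0.09) and SEMA6D, a semaphorin, by 1.37 (SE 0.10), while SEMA3A, ROBO2, a receptor of Slit (-1.42, SE 0.12), and PLXNA1, a co-receptor of class 3 semaphorins (-1.05, SE 0.13), fell. Of the 18 analysed genes of the protocadherin beta cluster, whose products give neurons a surface identity, 11 rose and none fell (61.1%, median 0.702, 6 without moderation). PCDHB5 read 5.92 and 5.6 in NDF and 6.71 and 6.77 in DF (log2 0.98, SE 0.12), PCDHB14 6.06 and 6.06 against 7.07 and 6.96 (0.96, SE 0.11), and PCDHB9, PCDHB6 and PCDHB10 changed by 0.86 to 0.87. The pseudogene PCDHB17P changed by 1.0 (SE 0.10). Members of this cluster are alike in sequence and probes may be shared. PCDHB2, at -0.04, and PCDHB1, at 0.02 and dim in both groups, were not called.

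Of 55 voltage-gated channel genes 8 rose and 1 fell (14.5% higher, median 0.103). CACNA2D2, an auxiliary calcium channel subunit, read 7.41 and 7.48 in NDF and 9.07 and 8.87 in DF (log2 1.52, SE 0.09, adjusted p = 7.68e-06). The sodium channels SCN3A, SCN9A and SCN2A rose by 1.11 (SE 0.10), 1.01 (SE 0.10) and 0.91 (SE 0.09), the L-type calcium channel CACNA1C by 1.05 (SE 0.09) and the potassium channel KCNH6 by 0.88 (SE 0.09).

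Of 32 genes of glycolysis and hypoxia, 7 fell and none rose (21.9%, median -0.189), led by ADM, the vasoactive peptide adrenomedullin (log2 -2.14, SE 0.08), the hexokinase HK2 (-1.11, SE 0.11) and LDHA, lactate dehydrogenase, which read 10.08 and 10.10 in NDF and 9.01 and 8.98 in DF. In the list of 27 genes of ATF4 and the amino acid response 4 fell (14.8%, median -0.298): SHMT2, of serine metabolism (-1.13, SE 0.09), the amino acid transporter SLC7A5 (-0.81, SE 0.09), PHGDH and MTHFD2. Of 28 genes of sterol and fatty acid synthesis 2 rose (7.14%, beside 3.98% of all genes). They were ACSS2, which makes acetyl-CoA (1.33, SE 0.11), and TM7SF2, a sterol reductase (0.85, SE 0.10). No gene was called among 20 of the endoplasmic reticulum chaperones and unfolded protein response (changes of -0.37 to 0.29) or among 36 of the interferon response (-0.46 to 0.51). The p53 list of 24 had 1 gene lower, PMAIP1 (-0.81, SE 0.13), which is 4.17% beside 3.55% of all genes. The 34 ribosomal protein genes had 2 lower (5.88%), RPS13 and RPL10A, with a list median of -0.228 and 31 of the 34 changes negative. The number of ribosomal protein genes called lower was 4 without V71 NDF replicate 3, 1 without V71 NDF replicate 2 or V71 DF replicate 2, and 0 without moderation. RPS9, the normalizer of the study's qRT-PCR, read 9.38 to 9.53 on the V71 arrays.

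**Figure D4:**
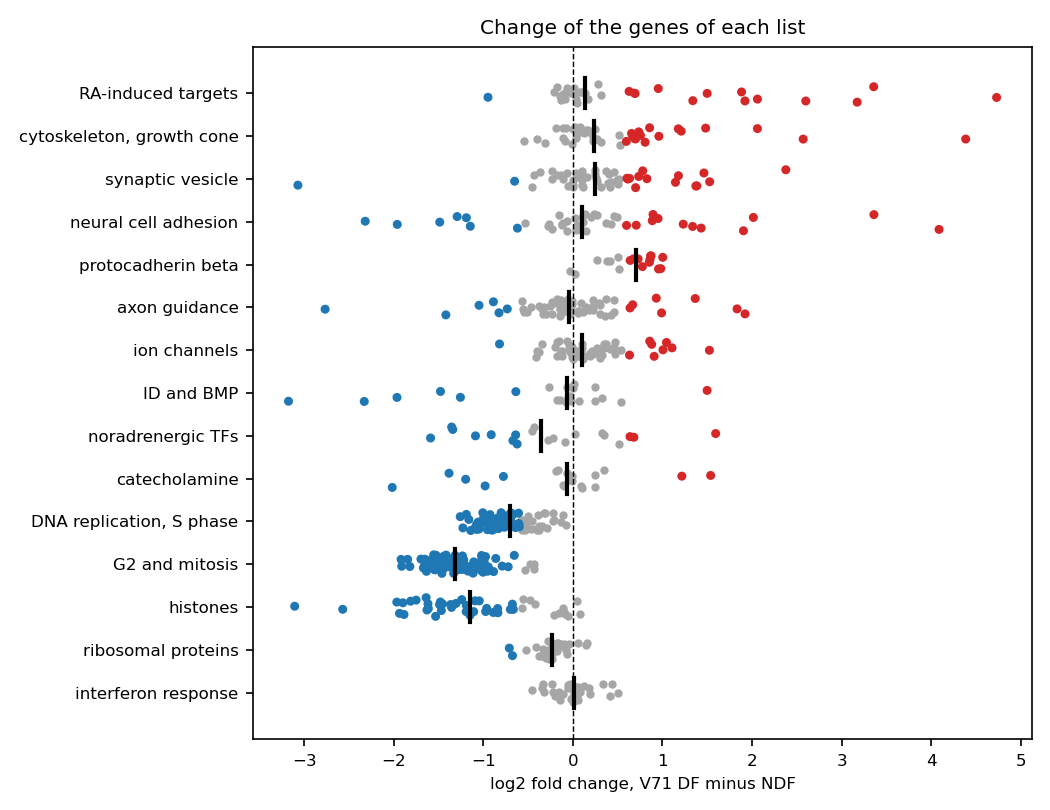
Log2 fold change of V71 DF minus NDF (x axis) for each analysed gene of 15 lists (y axis, jittered); red and blue points are genes called higher and lower, grey points are not called, thick bars are list medians and the dashed line is the median of all genes (-0.00356). The 3 cell cycle lists lie to the left (medians -1.31, -1.15 and -0.70). The cytoskeleton list runs from -0.55 to 4.39 and the neural adhesion list from -2.32 to 4.09. Synaptic vesicle genes run from -3.07 to 2.38 and axon guidance genes from -2.77 to 1.92. The protocadherin beta list has a median of 0.702.

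Markers of other cells that such cultures could hold were read as lists. Neuroblastoma cultures can hold S-type cells, which adhere to the substrate and are mesenchymal. Of their 49 analysed markers 3 rose (6.12%) and 1 fell (2.04%), beside 3.98% and 3.55% of all genes. The markers' median level per array was 4.56 and 4.67 in NDF and 4.38 and 4.36 in DF. Without V71 NDF replicate 2 the number called lower was 3, and without either V71 DF array it was 2. Levels of different probes are not comparable, so these values do not give the share of such cells. ANXA2, an annexin, rose by 1.06 (SE 0.17), NOTCH2, given above, is on this list too, TPM2, a tropomyosin, rose by 0.59 (SE 0.09), and EGFR fell by 0.93 (SE 0.12). The ANXA2 call is lost without moderation, and that of TPM2 without V71 DF replicate 2 (0.54) or V71 NDF replicate 3 (0.53), and under quantile normalization (0.56). VIM, which defines the type, read 3.17 and 3.23 in NDF and 3.02 and 2.80 in DF. CD44, another of its markers, read 3.30 to 3.44. Of 23 markers of Schwann cells and glia 1 fell (4.35%, beside 3.55% of all genes). It was the glutamate transporter SLC1A2 (-0.75, SE 0.09), and the median levels of the list were 4.12 to 4.37. SOX10, the glial master regulator, read 4.54 to 4.73. NES, a progenitor filament, differed by 0.10 (adjusted p = 0.709), and MYCN by 0.52 (SE 0.09), short of the fold and called when V71 NDF replicate 3 is left out (0.59).

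Most changes of the V71 line were also seen in the PLKO line, and 256 genes changed by different amounts. PLKO differentiation was called higher for 529 genes (2.88%) and lower for 764 (4.16%), 7.04% together. Of the 731 genes that rose in V71, 341 rose in PLKO as well, 7 fell and 383 were not called, and 681 had the same sign. Of the 652 that fell in V71, 512 fell in PLKO, 2 rose and 138 were not called. Across the 18377 genes the changes in the lines had a Pearson correlation of 0.78 and a Spearman correlation of 0.621, which describes these genes only, because genes are no independent replicates and all arrays were normalized together. The test of the difference, the interaction of line and condition, gave 200 genes with a higher and 56 with a lower change in V71 (1.09% and 0.305%, 1.39% together). Of the 200, 116 had risen in V71, 30 had fallen, and 54 were not called in V71.

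NTRK2 rose by 4.73 in V71 and 4.71 in PLKO, and the 95% interval of the difference ran from -0.31 to 0.35 (adjusted p = 0.986). NOS1, RGS13, MYH15 and CNTNAP5 rose in both lines and more in V71. Their changes in PLKO were 2.27, 2.50, 1.89 and 1.29, and the interactions 2.58 (SE 0.21), 2.55 (SE 0.21), 2.16 (SE 0.14) and 2.08 (SE 0.14). The largest interaction was that of PDE5A, a phosphodiesterase of cyclic GMP, which rose from 4.29 and 4.15 to 4.92 and 5.14 in V71 (log2 0.81) and fell by 2.11 in PLKO (interaction 2.92, SE 0.14, adjusted p = 5.75e-05). SEMA3C, a class 3 semaphorin, fell by 2.91 in PLKO and was not called in V71, where it read 5.41 to 5.77 (interaction 2.67, SE 0.13). PDE3A, another phosphodiesterase, also fell in PLKO and was not called in V71 (-2.87 in PLKO, interaction 2.39), at V71 values of 2.79 to 3.33 near the lower quartile. SGK1, a kinase of the AKT family, rose by 1.68 in V71 and fell by 0.82 in PLKO (interaction 2.5, SE 0.15). LIX1 rose by 2.51 in V71 and differed by 0.12 in PLKO (interaction 2.39), and EFNB2 rose by 1.83 in V71 and differed by -0.19 in PLKO (interaction 2.02).

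Genes on the other side fell more, or rose less, in V71. VCAN, the matrix proteoglycan versican, read 6.37 and 6.58 in V71 NDF and 4.70 and 4.62 in V71 DF (log2 -1.81), against 0.65 in PLKO (interaction -2.46, SE 0.14, adjusted p = 9.28e-05). CADPS, which primes secretory vesicles, rose by 0.60 in V71 and 2.96 in PLKO (interaction -2.36, SE 0.13), and ARHGAP20 by 1.05 and 3.31 (interaction -2.26, SE 0.15). RERG, EDIL3, ENC1 and SEMA3A fell in V71 more than in PLKO (interactions -2.16, -2.01, -1.69 and -1.61). CNTNAP4 differed by 0.01 in PLKO (interaction -1.97). SULF2, which edits heparan sulphate, changed by -0.85 in V71 and 1.05 in PLKO (interaction -1.89), and NTNG2, netrin G2, by -0.14 and 1.57 (interaction -1.71).

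By list, the mitotic genes fell in both lines, 79 of 83 in V71 (median -1.31) and 81 in PLKO (median -1.80). For 11 of the 83 the fall was smaller in V71 by the interaction, which was called higher for 1.09% of all genes. No gene of the replication list had a called interaction. Other genes had opposite signs in the lines. GAP43 rose by 0.81 in V71 and changed by -0.74 in PLKO (interaction 1.55, SE 0.13, adjusted p = 0.000458), DCX rose by 0.74 against -0.58 (interaction 1.31, SE 0.13), and SPRY2 by 0.75 against -0.96 (interaction 1.71, SE 0.13). CRABP2 rose less in PLKO (1.58, interaction 1.78) and DHRS3 more (3.20, interaction -1.28, SE 0.13), whereas the interaction of RARB was not called (2.42 in PLKO, interaction 0.76, SE 0.19, adjusted p = 0.138). Of the 49 S-type markers 7 had a higher and 0 a lower change in V71 by the interaction, beside 1.09% and 0.305% of all genes. In both V71 groups 9 of the 49 were dim. VIM was among the 7 (-1.74 in PLKO, interaction 1.44, SE 0.18). The V71 values of VIM, given above, lie near the lower quartile of the arrays already in NDF, where background may limit a fall. The part of such cells in the differences between the lines was not tested. The interactions rest on moderated variances: without moderation 3 genes were called higher and none lower, against 200 and 56 with it. With moderation, limma's unadjusted p for the interaction was under 0.05 for 1873 of the 18377 genes, a count that uses no fold threshold.

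**Figure D5:**
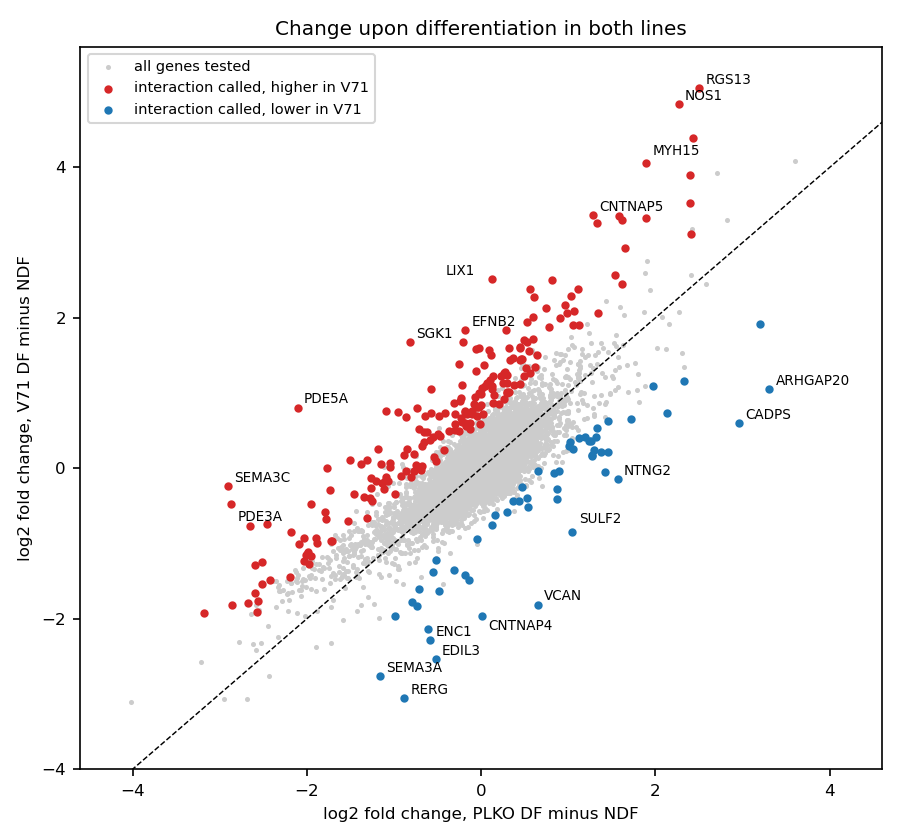
Log2 fold change upon differentiation in PLKO (x axis) and V71 (y axis) for the 18377 genes (grey), with the 200 genes of higher and the 56 of lower change in V71 by the interaction in red and blue; the dashed line marks equal change. The named points are the 10 genes farthest from it on each side, from PDE5A (-2.11 and 0.81) above the line to VCAN (0.65 and -1.81) under it.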

How the data were processed

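Total RNA was hybridized to Affymetrix Human Gene 1.0 ST arrays. The authors used RMA, as implemented in Partek Genomics Suite 6.5, for normalization and summary. Their deposited log2 intensities (1.279 to 12.89) were taken without further scaling. Of 28869 rows, 19310 have 1 gene symbol, 1752 several and 7807 none. The 685 genes with several rows were represented by the brightest row on average. Rows without a single gene were fitted and counted in the p adjustment, and none was named.

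A linear model with 4 group means over the 8 arrays was fitted in limma 3.58.1 (R 4.3.3) with eBayes (4 residual and 5.43 prior degrees of freedom), since 2 arrays in a group give too little spread alone. Contrasts were V71 DF minus NDF, PLKO DF minus NDF and their difference. Calls needed a Benjamini-Hochberg adjusted p under 0.05 over all rows and a fold of at least 1.5. On simulated data of 28869 rows for the V71 comparison, the fit recovered 40 of 50 rows changed 1.8-fold, 40 of 50 changed 2-fold, 47 of 50 changed 3-fold and 50 of 50 changed 4-fold, with 6 false calls. The median residual SD was 0.0996. A group mean under the lower quartile of its arrays was taken as dim, as held for 1 group in 21 and 13 of the genes called higher and lower, and for both groups in 3 and 0. Detection calls were not used.

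The lines, gene lists, motifs and tests were chosen with earlier results of these data known. Named genes are the 15 highest and 15 lowest called, up to 6 called genes of the largest change in each of 30 lists, the members that define a list, and the 10 highest and 10 lowest interactions. Genes of lists beyond these, the neighbours of HOXD, MCM6, CDT1, CCNB2 and CDC20 were named after their values were seen. Promoters (250 bases before and 50 after a start, RefSeq, GRCh38.p14) matched 14210 of 18377 genes by symbol. Samples with the same replicate number are not paired by the labels, and V71 NDF 2 and V71 DF 2 share only that number. Alternatives left out each array, dim rows (below percentile 33), moderation or the PLKO arrays, added a replicate block, array weights or a prior that was robust and trended, repeated the scaling by quantiles or by medians, adjusted p or counted calls over other sets of rows, and required a fold of 2. Some genes are not analysed here.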

Additional observations from a re-analysis of the deposited data

Results flagged for a closer look

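The change upon differentiation differed between V71 and PLKO, by limma's interaction test, in 256 genes. The 10 highest interactions on the log2 scale (V71 minus PLKO) were PDE5A 2.92, SEMA3C 2.67, NOS1 2.58, RGS13 2.55, SGK1 2.5, LIX1 2.39, PDE3A 2.39, MYH15 2.16, CNTNAP5 2.08 and EFNB2 2.02. The 10 lowest were VCAN -2.46, CADPS -2.36, ARHGAP20 -2.26, RERG -2.16, EDIL3 -2.01, CNTNAP4 -1.97, SULF2 -1.89, NTNG2 -1.71, ENC1 -1.69 and SEMA3A -1.61. All 20 lose the call without moderation of the variance and keep it under each of the other alternatives run.

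Rows outside the genes counted also changed: 228 of the 9559 rows with several gene symbols or none passed the same thresholds in V71 DF minus NDF. They were not named.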

How the results depend on the processing

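In V71, 514 genes were higher and 443 lower without moderation, and 800 and 599 with a replicate block. A fold of at least 2 left 230 higher and 256 lower. No call of the 148 named V71 genes changed direction, 103 kept their call under every alternative, 25 lost it at a fold of 2 alone, 15 lost it without moderation and 4 with the block (CDK4, GATA3, SLC2A1 and TPM2). Leaving out 1 array ended the call of 9 named genes: CDK4, EGLN3, GATA3, MTHFD2, RPL10A, RPS13, SLC2A1, SYP and TPM2. Among uncalled genes the sign turned, without 1 array, for NES (-0.0407 to 0.249), NGFR (-0.34 to 0.088), SOX10 (-0.16 to 0.022) and STMN2 (-0.0081 to 0.0465). Leaving out 1 array also moved small list counts: synaptic vesicle genes called lower went from 2 to 1 without V71 NDF replicate 3 or either V71 DF array, cholinergic genes called higher from 1 to 2 without V71 NDF replicate 3 or V71 DF replicate 1 and lower from 1 to 2 without V71 NDF replicate 2 or V71 DF replicate 1, and ID and BMP genes called higher from 1 to 2 without V71 NDF replicate 2. From 0, 1 gene was called lower without V71 DF replicate 1 in the neurotrophin and GDNF list and in the cytoskeleton list, 1 lower without V71 NDF replicate 3 in the interferon list, and 1 higher without V71 NDF replicate 3 or V71 DF replicate 2 in the p53 list and in the glycolysis list.

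The interaction depends more on the setting. A fold of at least 2 left 104 higher and 29 lower, no moderation 3 and 0, and the replicate block 150 and 40. Leaving out each array in turn gave 97 to 185 higher, and 23 to 45 lower. Both were lowest without PLKO NDF replicate 3, and both fell by more than 1.5 times without PLKO DF replicate 1, PLKO NDF replicate 2, V71 DF replicate 1 or V71 NDF replicate 3 too, as did the higher count without V71 NDF replicate 2 (124). The labels do not say that the replicate numbers of the block pair the arrays. Deviations from the group means correlated between -0.176 and 0.188 for same-numbered arrays and between -0.188 and 0.176 for the others. With 2 arrays a group the deviations mirror each other, so these values cannot show whether arrays were paired.

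With 2 arrays a group, 4 residual degrees of freedom and no detection calls, small changes and dim genes are the least certain. The causes of these shifts were not tested.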

Other observations

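Small RNA genes and an imprinted region on chromosome 14 were looked at after the values were seen. Of 174 microRNA precursor rows with 1 gene symbol, 4 were called higher and 2 lower in V71, and 83 were dim in both groups. Both counts lie below the shares over all genes tested (3.98% higher and 3.55% lower). The rows read precursor or host transcript and not the mature strands. MIR99A, on chromosome 21, read 4.75 and 4.26 in NDF and 5.37 and 5.29 in DF (log2 0.82, SE 0.15), and its host gene MIR99AHG changed by 0.60 (SE 0.10, adjusted p = 0.00272). MIR15A changed by -0.75 (SE 0.13), MIR181B2 by -0.62 (SE 0.13), and MIR17HG, a host of growth-promoting microRNAs, by -0.86 (SE 0.12). The strands encoded by the called precursors below, from RefSeq with the seed (bases 2 to 8) in capitals, share no seed.
hsa-miR-99a-5p: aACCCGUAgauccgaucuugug
hsa-miR-15a-5p: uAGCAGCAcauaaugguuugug
hsa-miR-181b-5p: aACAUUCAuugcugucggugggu
hsa-miR-127-3p: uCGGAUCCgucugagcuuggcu
hsa-miR-136-5p: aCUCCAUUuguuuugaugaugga

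Genes of the imprinted region on chromosome 14 did not move as 1 unit. RTL1, a retrotransposon-derived gene, read 6.58 and 6.87 in NDF and 8.43 and 8.37 in DF (log2 1.68, SE 0.11, adjusted p = 1.28e-05). MIR127, antisense to RTL1, changed by 0.59 (SE 0.11), and MIR136 by 0.80 (SE 0.23) with DF arrays at 3.68 and 2.79. DLK1 fell by 1.51 (SE 0.10), and MEG3 differed by 0.06 (adjusted p = 0.873). The change of RTL1 in PLKO was -0.21, and the interaction 1.89 (adjusted p = 0.000392). Reads of a gene and its antisense partner were not separated here beyond the rows' names.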
